A study of Nannospalax ehrenbergi and Mus musculus with 14 samples.

Results

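MicroRNA levels were compared between the injected side (IS) and the uninjected side (UIS) of the 2 *Spalax* animals that grew a fibrosarcoma, a malignant tumor of fibroblast origin, after a single subcutaneous injection of 3-methylcholanthrene (3MCA), a chemical carcinogen. *Spalax* (Nannospalax ehrenbergi) is a subterranean blind mole rat. The comparison used the 4 libraries that the labels give to these animals, of 14 small RNA libraries in the series analysed here, and all 1326 microRNA names listed for each of them. Animal Sp2230, a male, was operated on 30 months after the injection, and animal Sp2240, a female, 18 months after it. The uninjected sides came from the same treated animals, so both groups share the 3MCA exposure, and no untreated animal entered the comparison. The age of each animal is not given in the labels. The labels call the tissue of all 4 libraries muscle tissue. A further 4 libraries came from both sides of 2 *Spalax* that had grown granulomas (benign inflammatory lesions) after the same treatment. The fibrosarcoma is compared with them in later paragraphs. They also entered the filter on low values and the main fit, so they share in the spread behind its p-values. Those animals, Sp600 and Sp976, are both given as female and were operated on after 14 and 16 months. With 2 animals a side, the limma p-values below rest on the spread between libraries of the same lesion and side. That spread was pooled over both lesions and moderated across microRNAs, and the main fit did not pair the sides of an animal.

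MicroRNAs are short RNAs cut from a hairpin precursor. Either arm of the hairpin can become the mature strand, and the strand is named 5p or 3p after its arm. Loaded into the silencing complex, it pairs through a short stretch near its start, the seed, with messenger RNAs and lowers their output, and microRNAs with the same seed form a family. Skeletal muscle fibers hold a few microRNAs, the muscle microRNAs of the miR-1a, miR-206, miR-133, miR-499 and miR-208 genes, at very high levels, and blood cells, endothelium and fibroblasts each have others that mark them. In tumors miR-21 and the pair miR-221 and miR-222 are widely known as raised, and the miR-17-92 cluster is known for promoting cell division.

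The reads of *Spalax* were counted under mouse microRNA names, and the mature strands were not among the sequences used here. The mouse hairpins below are given to show which letters the members of the main families share. They were read from the mouse genome GRCm38 with the GENCODE M21 annotation, run 5′ to 3′ on the strand of the gene, and carry in capitals the longest run of letters common to the hairpins of the family. The hairpins of miR-221 and miR-222, which were among the microRNAs with the largest rises at the tumor side, lie 504 bases apart on the minus strand at chrX:19146294-19146388 and chrX:19146893-19146971, outside any other annotated gene.
Mir221: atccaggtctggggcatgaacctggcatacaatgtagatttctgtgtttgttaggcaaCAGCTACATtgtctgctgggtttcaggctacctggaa
Mir222: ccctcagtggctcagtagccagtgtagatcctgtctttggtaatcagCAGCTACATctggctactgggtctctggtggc
The miR-34 and miR-449 hairpins, a family with several large rises on few reads, lie at chr4:150068454-150068555 on the plus strand outside other genes, at chr9:51103034-51103110 on the minus strand, opposite an intron of the protein-coding gene Btg4, and at chr13:113037534-113037624 on the plus strand in an intron of Cdc20b.
Mir34a: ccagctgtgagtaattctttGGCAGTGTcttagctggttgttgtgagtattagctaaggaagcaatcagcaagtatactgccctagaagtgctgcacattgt
Mir34c: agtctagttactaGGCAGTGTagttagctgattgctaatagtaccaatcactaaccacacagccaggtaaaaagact
Mir449a: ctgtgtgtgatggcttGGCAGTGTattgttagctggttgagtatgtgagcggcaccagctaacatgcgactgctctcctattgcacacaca
The miR-130 and miR-301 family had several members that were higher in both tumors. Its hairpins Mir130b and Mir301b lie on the minus strand at chr16:17124061-17124142 and chr16:17124400-17124496 in an intron of 2610318N02Rik, and Mir301, the hairpin of miR-301a, lies at chr11:87113004-87113089 on the plus strand in an intron of Ska2.
Mir130b: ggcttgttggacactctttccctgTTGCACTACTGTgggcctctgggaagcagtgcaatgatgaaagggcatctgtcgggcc
Mir301: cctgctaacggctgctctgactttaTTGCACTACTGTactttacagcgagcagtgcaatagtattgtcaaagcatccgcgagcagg
Mir301b: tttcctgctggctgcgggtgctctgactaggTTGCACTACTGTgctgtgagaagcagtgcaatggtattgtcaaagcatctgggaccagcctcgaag
Of the miR-17 family, Mir17 and Mir20a lie at chr14:115043671-115043754 and chr14:115044157-115044263 on the plus strand in an exon of the noncoding gene Mir17hg, and Mir106b lies at chr5:138165737-138165818 on the minus strand in an intron of Mcm7, a subunit of the replicative helicase.
Mir17: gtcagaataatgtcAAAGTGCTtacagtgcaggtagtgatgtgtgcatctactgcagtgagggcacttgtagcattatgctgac
Mir20a: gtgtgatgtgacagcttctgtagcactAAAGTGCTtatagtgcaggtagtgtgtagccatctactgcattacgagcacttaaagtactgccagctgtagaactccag
Mir106b: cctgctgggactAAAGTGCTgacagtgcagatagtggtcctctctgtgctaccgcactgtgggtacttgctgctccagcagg
The muscle microRNAs miR-206 and miR-133b, at the other end of the comparison, come from a noncoding gene of mouse chromosome 1, Gm28653, at chr1:20679010-20679082 and chr1:20682769-20682887 on the plus strand, with 3686 bases between the hairpins. They are printed in lower case only, since they belong to different families.
Mir206: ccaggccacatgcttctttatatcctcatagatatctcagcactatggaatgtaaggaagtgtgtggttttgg
Mir133b: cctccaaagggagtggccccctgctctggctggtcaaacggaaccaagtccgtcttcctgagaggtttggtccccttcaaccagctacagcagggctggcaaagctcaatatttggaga

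The composition of the libraries differed between the sides. MicroRNAs of the muscle list took 35.2% and 36.5% of the microRNA reads in the UIS libraries of animals Sp2230 and Sp2240, and 0.0132% and 0.0112% in the IS libraries. The tumor libraries thus carried nearly none of the defining microRNAs of the labelled tissue. In the UIS libraries miR-133a-3p alone held 33.2% and 34.5% of the reads, followed by miR-22-3p, miR-26a-5p and miR-378a-3p. At the IS the first rank passed to miR-21a-5p, with 13.6% and 13.2% of the reads. The 10 most abundant microRNAs held 58.1% and 55.4% of the IS reads and 76.8% and 77.2% of the UIS reads. Of the reads, 90% fell on 44 and 45 microRNAs at the IS and on 24 in each UIS library. Names listed with identical values, such as miR-199a-3p and miR-199b-3p, are each counted in these shares and in the read totals. In bulk tissue, fewer cells of a type and less RNA per cell cannot be told apart.

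**Figure D1:**
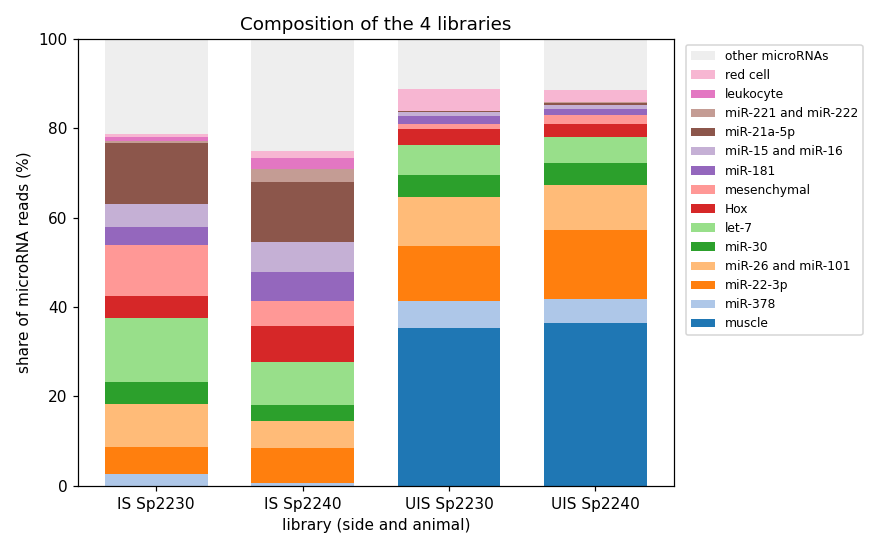
Share of microRNA reads in percent (vertical axis) taken by groups of microRNAs in each of the 4 libraries (horizontal axis, side and animal). The muscle microRNAs fill 35.2% and 36.5% of the UIS libraries and are too small to see at the IS. Names listed with identical values are each counted.

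The IS libraries held 7991923 (animal Sp2230) and 2034574 reads (animal Sp2240) on microRNAs, and the UIS libraries 11777494 and 13046355. The tumor of animal Sp2240 was thus the shallowest library, and 3 reads, the limit that a count of 0 allows, stood for 0.000147% of its reads against 0.0000375% in the other tumor. A read was seen in at least 1 of the 4 libraries for 615 microRNA names, and 447 passed the filter on low values (a normalized count of at least 10 in at least 2 of the 8 *Spalax* libraries). Normalized counts below are the deposited values, in which the reads of a library were divided by its size factor. Changes are differences in log2(normalized count + 1), IS less UIS, from limma, and this scale understates the change of microRNAs with few reads.

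Past a Benjamini-Hochberg adjusted p of 0.05, 167 of the 447 microRNAs tested (37.4%) differed between the sides in limma. Of these, 68 were higher at the IS (15.2% of those tested) and 99 lower (22.1%). These 2 shares are the background for the counts of each list below. All 167 differed in the same direction in both animals, as did 342 of all 447 microRNAs. With 2 animals, passing on the mean difference nearly requires this, so the agreement is no separate evidence. The sides did not overlap, in either direction, for 309 microRNAs (69.1%). That share is the background for each later remark that the sides of a microRNA were apart. The changes of the 2 animals had a Pearson correlation of 0.817 and a Spearman correlation of 0.742 across the 447 microRNAs, given as a description, since microRNAs of one library share its depth and its composition. The median change over all 447 was -0.23. How the libraries are scaled moved this middle. Scaled to total reads, the median was 1.40, a shift of 1.63, and 193 microRNAs were higher and 41 lower. Scaled to the reads outside the muscle list, the median was 0.77, with 144 higher and 58 lower. The share of higher among the calls was 40.7%, 82.5% and 71.3% in these 3 scalings. All 68 rises (15.2%) passed under the 3 scalings, but only 41 of the 99 falls did (9.17% of the microRNAs tested). Of the 131 microRNAs with a negative change smaller than 1.63 in size, 121 had a positive change when scaled to total reads.

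The UIS libraries weighed on the number of calls. Without the UIS library of animal Sp2230, 25 microRNAs were higher and 53 lower, and without that of animal Sp2240, 22 and 55, with the lone UIS sample assumed to vary like the other groups. Past the threshold with each of the 4 libraries left out in turn were 66 microRNAs, 18 of them higher and 48 lower. The 18 were both arms of miR-142a, miR-21a and miR-542, together with miR-147-3p, miR-15b-3p, miR-18a-5p, miR-19a-3p, miR-210-3p, miR-221-5p, miR-222-3p, miR-301a-3p, miR-301b-3p, miR-322-5p, miR-450a-5p and miR-455-5p. Some of these names were taken from that count after their values were seen.

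**Figure D2:**
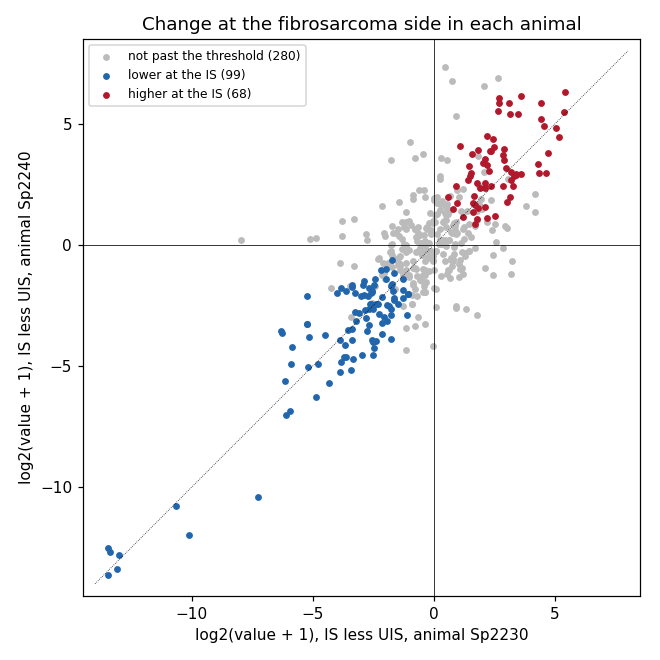
Change in log2(normalized count + 1), IS less UIS, of each of the 447 microRNAs tested in animal Sp2230 (horizontal axis) and in animal Sp2240 (vertical axis), with those past the threshold in color. The 167 called microRNAs lie in the quadrants where both animals moved the same way, as do 342 of all 447. The lower left corner holds the muscle microRNAs.

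All 11 tested members of the muscle list fell at the tumor side, with a median log2 change of -11.06 against -0.23 over all microRNAs tested, and all 11 passed under the 3 scalings. These are microRNAs of differentiated muscle fibers, several of which lie in introns of myosin genes. For miR-133a-3p the normalized counts were 535 and 451 in the tumors of animals Sp2230 and Sp2240, and 4712655 and 4842163 in their uninjected sides, a log2 change of -13.24 (SE 1.10, adjusted p = 0.000404 in limma). Its other strand, miR-133a-5p, had no read in either tumor and normalized counts of 11363 and 12831 in the UIS libraries, so that it was at least 2971-fold lower at the IS, taking 3 reads per library as the floor. The counts of miR-1a-3p were 16.3 and 26.0 in the tumors and 186762 and 175848 in the UIS. miR-206-3p, which is restricted to skeletal muscle, had 2.18 and 2.17 in the tumors and 26058 and 22845 in the UIS, with 5 reads in the tumors together. The slow-fiber microRNAs stood at a like low level. miR-208b-3p had 2 reads in the tumors and 5727 in the UIS libraries, and miR-499-5p 30 and 6223. None of these groups of values overlapped, which held for 69.1% of all microRNAs tested. For miR-133b-3p the counts were 3.81 and 10.8 in the tumors and 53830 and 69374 in the UIS, a log2 change of -12.98 (adjusted p = 0.00054). Leaving out any of the 4 libraries kept 10 or 11 of the list past the threshold.

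Several microRNAs outside that list fell with it. Both tested members of the miR-135 family were lower. miR-135a-5p had no read in either tumor and 1620 and 1743 normalized counts in the UIS libraries, at least 413-fold lower at the IS. It had the smallest adjusted p of the comparison (1.22e-05 in limma). Its tumor values, both 0, add no spread on this scale, so that rank depends in part on the floor. All 5 members of the miR-378 family, of which miR-378a comes from an intron of the metabolic coactivator gene Ppargc1b, fell, with a median of -4.13. miR-378a-3p, the most abundant of them, had 91927 and 25889 in the tumors and 727215 and 614081 in the UIS (log2 change -3.78, SE 0.60, adjusted p = 0.00301), and 4 of the 5 passed under the 3 scalings. The exception was miR-378c, whose change was -3.19 (adjusted p = 0.00813) and -1.50 when scaled to total reads (adjusted p = 0.0896), and which missed the threshold without either UIS library (0.0593 and 0.0521). miR-22-3p, the second most abundant microRNA of the UIS libraries, had 270016 and 343454 at the IS against 1732960 and 2169513 at the UIS, a log2 change of -2.67 (SE 0.25, adjusted p = 0.000539) that also passed under the 3 scalings. With 6.21% and 7.78% of the reads it was still among the 3 most abundant microRNAs of the tumors. The sides were apart in each, and all 5 strands of miR-378 were lower in the tumor of animal Sp2240 than in that of animal Sp2230.

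**Figure D3:**
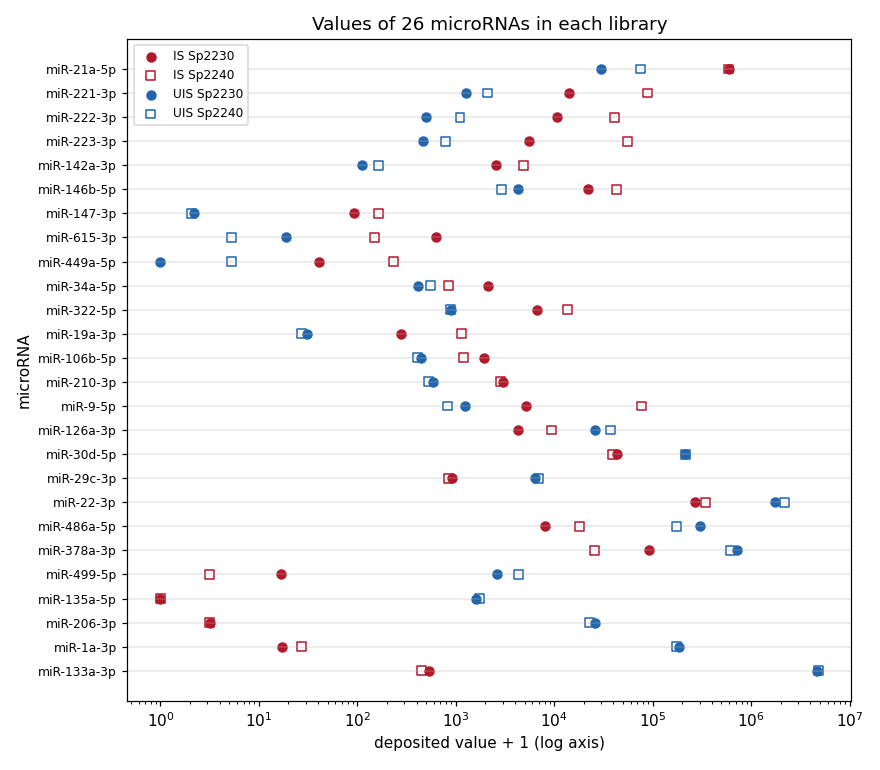
Deposited value plus 1 on a log axis (horizontal) of 26 microRNAs (vertical axis) in each library: red filled circles, IS of animal Sp2230, red open squares, IS of animal Sp2240, blue filled circles and open squares, the UIS of the same animals. miR-1a-3p, miR-206-3p and miR-133a-3p lie far lower at the IS, and the tumors differ from each other most for miR-9-5p and miR-223-3p.

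Of 7 red cell microRNAs tested, 4 fell and 3 did not pass the test. The 4 were the strands of miR-486, which is made in both erythroid cells and muscle. Among them miR-486a-5p and miR-486b-5p are listed with identical values, so the 4 falls count the same reads under both names. These names had 8017 and 18022 in the tumors and 302109 and 174676 in the UIS, a log2 change of -4.26 (SE 0.69, adjusted p = 0.00301). The red cell microRNA that muscle does not share, miR-451a, had 10654 and 34052 at the IS against 73633 and 29549 at the UIS, with overlapping sides and an adjusted p of 0.287. Its cluster partner miR-144-3p was at 642 and 1169 at the IS against 1592 and 611 at the UIS (adjusted p = 0.885). All 4 falls passed under the 3 scalings and without each library in turn.

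MicroRNAs of inflammation and of blood leukocytes were among those that rose at the tumor side. Of 10 tested members of the inflammatory list, 7 rose and 3 did not pass the test, with a median of 3.02. miR-21a-5p, induced by inflammatory signalling and raised in many tumors, had 592873 and 583878 normalized counts in the tumors and 29815 and 75633 in the UIS, a log2 change of 3.63 (SE 0.45, adjusted p = 0.00106). Its 3p strand rose from 126 and 289 to 4545 and 6251, a change of 4.79 (adjusted p = 0.000747). The tumors agreed more closely in miR-21a-5p than the uninjected sides did, and no values overlapped. miR-147-3p, which macrophages induce after Toll-like receptor stimulation, had 92.0 and 163 in the tumors and 1.20 and 1.08 in the UIS, where only 2 reads stand behind it against 244 in the tumors. The ratio of the pooled reads, each divided by its size factors, was 93.4 with a 95% exact interval of 25.6 to 776 that covers counting error only. Its fitted log2 change of 5.85 was the largest rise of the comparison.

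The feedback regulators of NF-kB signalling, miR-146a and miR-146b, rose as well. miR-146b-5p had 21997 and 42499 in the tumors and 4302 and 2933 in the UIS (log2 change 3.11, adjusted p = 0.00627), and miR-146a-5p 8778 and 6414 against 968 and 1005 (log2 change 2.93, adjusted p = 0.0186). Neither had sides that overlapped, although both missed the threshold without the UIS library of animal Sp2240 (adjusted p = 0.0549 and 0.0927), and miR-146a-5p also without the UIS (0.0918) or the IS library (0.0783) of animal Sp2230. miR-155-5p, made by activated lymphocytes and macrophages, was at 4270 and 3923 against 516 and 601, a change of 2.88 whose adjusted p was 0.0593. In the fits without the UIS library of animal Sp2230 or Sp2240, 4 and 3 of the 10 microRNAs of the list passed. miR-146a, miR-146b and miR-155 were picked for this paragraph after their values were seen.

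All 4 tested leukocyte microRNAs rose, with a median of 4.39, and took 0.786% and 2.35% of the tumor reads against 0.0464% and 0.0313% of the UIS reads. miR-142a is made in blood cells, and miR-223 marks neutrophils and other myeloid cells. miR-142a-3p had 2552 and 4830 in the tumors and 110 and 162 in the UIS, a log2 change of 4.71 (SE 0.68, adjusted p = 0.0022). miR-142a-5p had 25440 and 39296 against 5909 and 3352 (log2 change 2.83). miR-223-3p stood at 5597 in the tumor of animal Sp2230 and at 55348 in that of animal Sp2240, against 465 and 794 in the UIS, a change of 4.86 (SE 1.07, adjusted p = 0.0107). It was higher in both tumors, and 9.89 times as high in one as in the other. The strands of miR-223 missed the threshold without the UIS library of animal Sp2230 (adjusted p = 0.0799 and 0.0642) or of animal Sp2240 (0.053 and 0.0775), and those of miR-142a passed with each library left out in turn. Of the lymphocyte list none of 3 passed (median 1.26), and 2 were higher when scaled to total reads. Those were both strands of miR-342. miR-342-3p was at 934 and 842 at the IS against 426 and 322 at the UIS, a change of 1.26 (adjusted p = 0.0593) and of 2.94 when scaled to total reads (adjusted p = 0.00155). miR-150-5p, of mature lymphocytes, was at 3011 and 1892 at the IS against 5698 and 7932 at the UIS (log2 change -1.49, adjusted p = 0.0579, and 0.19 when scaled to total reads).

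The 4 strands of miR-221 and miR-222, a pair that targets the cell cycle inhibitor p27 and is raised in many tumors, all rose, with a median of 4.64. miR-222-3p had 10787 and 40813 normalized counts in the tumors and 503 and 1103 in the UIS, a log2 change of 4.81 (SE 0.85, adjusted p = 0.0046). miR-221-3p had 14005 and 89303 against 1271 and 2101, a change of 4.43 (SE 0.92, adjusted p = 0.00909), and miR-221-5p 779 and 4042 against 36.1 and 70.0, a change of 5.11. All 4 strands were higher in the tumor of animal Sp2240 than in that of animal Sp2230, and in both tumors they were above both UIS values. The pair took 0.588% and 3.05% of the tumor reads and 0.0128% and 0.0233% of the UIS reads. Without the UIS library of animal Sp2230 the adjusted p of miR-221-3p was 0.0671, and 2 of the 4 strands passed, while miR-221-5p and miR-222-3p passed with each library left out in turn. miR-222-5p, with 6 reads in the UIS libraries, missed it without either UIS library (0.171 and 0.139) or the IS library of animal Sp2240 (0.19).

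Of 19 tested strands of the miR-17-92 cluster and its paralogs, 9 rose (47.4%, beside 15.2% over all), none fell and 10 did not pass the test. Their median was 1.67. miR-18a-5p had 268 and 571 in the tumors and 36.1 and 43.1 in the UIS, a log2 change of 3.28 (SE 0.52, adjusted p = 0.003). miR-92a-3p, the most abundant member, had 61662 and 123435 against 41776 and 31616 (log2 change 1.26, adjusted p = 0.0379), and miR-17-5p 1324 and 2580 against 501 and 408 (2.03, adjusted p = 0.0107). miR-106b-5p of the paralog cluster in Mcm7 had 1924 and 1202 against 444 and 410 (1.83, adjusted p = 0.0113). The sides of all 4 were apart, beside 69.1% of all microRNAs tested. miR-20a-5p, with the same shared run as miR-17 and miR-106b, was at 835 and 2035 against 530 and 499 (1.34, adjusted p = 0.0781), and miR-93-5p at 10617 and 11155 against 7329 and 4540 (0.92, adjusted p = 0.0781). In contrast to these, miR-363-3p of the paralog cluster on the X chromosome stood at 3.27 in the tumor of animal Sp2230, at 521 in that of animal Sp2240 and at 1086 and 460 in the UIS, and miR-20b-5p of the same cluster at 1.63, 41.2, 77.0 and 33.4. Both were picked after their values were seen, and their adjusted p were 0.142 and 0.184. Without the UIS library of animal Sp2230 or Sp2240, 2 and 3 of the 19 were higher, and without the IS library of animal Sp2240, 6 were higher and 2 lower. With the animals as a replicate block 6 were higher.

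The miR-15 and miR-16 family, which acts against cell division, and the related X-linked cluster of miR-322 and miR-503 had higher strands at the IS and none that fell. Of 8 tested strands of the former, 3 rose, led by miR-15b-3p with 515 and 523 in the tumors against 118 and 102 in the UIS (log2 change 2.23, SE 0.40, adjusted p = 0.00486). miR-16-5p, its most abundant member, had 189349 and 274248 against 110713 and 99766, a smaller change of 1.12 (adjusted p = 0.0165, and 0.0765 and 0.105 without the UIS library of animal Sp2230 or Sp2240). With the animals as a replicate block its adjusted p was 0.0509. Without those UIS libraries 2 and 1 of the 8 were higher. Of 8 tested strands of the miR-322 and miR-503 cluster, 6 rose, with a median of 2.89. miR-542-3p had 683 and 723 in the tumors and 25.3 and 51.7 in the UIS, a log2 change of 4.24 (SE 0.51, adjusted p = 0.000969). miR-322-5p, the rodent name of miR-424, had 6745 and 13704 against 903 and 876 (3.43, adjusted p = 0.00301). The tumor values of both these strands lay above their UIS values, and 4 to 6 of the 8 strands were higher when a library was left out.

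Of the 5 tested strands of miR-34 and miR-449, which share the run shown in their hairpins and are known as targets of p53 (miR-34) and of the E2F factors (miR-449), 3 rose. miR-449a-5p had 39.7 and 234 in the tumors and 0 and 4.31 in the UIS, where it had 4 reads against 181 in the tumors. The ratio of pooled reads was 34.7 (95% exact interval 13.3 to 129, counting error only), and the fitted log2 change 5.41 (adjusted p = 0.0113). miR-34c-5p had 14.7 and 143 against 2.41 and 5.38 (log2 change 3.35, adjusted p = 0.0355), on 93 reads in the tumors and 7 in the UIS. The most abundant member, miR-34a-5p, had 2150 and 842 against 413 and 549, a change of 1.50 that did not pass (adjusted p = 0.182), although its sides did not overlap. Between the tumors, miR-34a-5p was higher in animal Sp2230, and miR-34c-5p and miR-449a-5p were higher in animal Sp2240. None of the 5 passed without the UIS library of animal Sp2230, and 1 passed without the IS or the UIS library of animal Sp2240. The adjusted p of miR-449a-5p was then 0.0832 without the former and 0.0556 without the IS library of animal Sp2240.

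Of 12 tested strands of the miR-148 and miR-130 and miR-301 families, 9 rose and none fell, with a median of 1.88. miR-301a-3p had 2549 and 1682 in the tumors and 246 and 226 in the UIS (log2 change 3.13, SE 0.48, adjusted p = 0.00263), and miR-301b-3p, which shares its seed, 88.2 and 52.1 against 3.61 and 4.31 (3.80, adjusted p = 0.00222). miR-148a-3p, the most abundant of them, had 47951 and 53979 against 15665 and 21305 (1.48, adjusted p = 0.0172). The sides were apart in each, beside 69.1% of all microRNAs tested. The number of higher strands was 4 without the UIS library of animal Sp2230 and 2 without that of animal Sp2240. Among the microRNAs of the Hox clusters, 4 of 9 rose (44.4%, beside 15.2% over all). miR-615-3p had 626 and 150 against 18.1 and 4.31, a change of 4.93 (SE 0.97, adjusted p = 0.00717), and miR-196a-5p 277 and 2263 against 42.1 and 33.4 (4.37, adjusted p = 0.0158). The former missed the threshold without the UIS library of animal Sp2240. The latter missed it without either UIS library or the IS library of animal Sp2240. miR-10b-5p, the most abundant of the Hox microRNAs, was at 156075 and 249369 against 416446 and 342346, a change of -0.94 that did not pass (adjusted p = 0.0635) and was 0.75 when scaled to total reads. It was lower in edgeR with TMM factors (-1.12, adjusted p = 0.0482) and without the IS library of animal Sp2240 (-1.27, adjusted p = 0.031). In that latter fit 1 other of the 9 Hox microRNAs was higher. Without the UIS library of animal Sp2230 there was 1 higher too, and without the UIS library of animal Sp2240 none.

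miR-210-3p, the microRNA that hypoxia-inducible factor induces, had 3020 and 2827 normalized counts in the tumors and 589 and 533 in the UIS, a log2 change of 2.38 (SE 0.39, adjusted p = 0.00332) that passed with each of the 4 libraries left out in turn. The animals differed by little on either side. Its 5p strand was at 354 and 176 against 165 and 169 (0.58, adjusted p = 0.369). Of the epithelial microRNAs 1 of 5 rose (20%, beside 15.2% over all). This was miR-141-3p, with 43.6 and 80.3 against 12.0 and 12.9 (2.16, adjusted p = 0.0178 in limma). It did not pass without the IS library of animal Sp2240 or either UIS library. The epithelial list took at most 0.0073% of the reads of any of the 4 libraries. None of the 3 tested strands of miR-183, miR-96 and miR-182 passed. miR-182-5p was at 1986 and 336 at the IS against 589 and 167 at the UIS, so that animal Sp2230 was the higher on both sides.

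**Figure D4:**
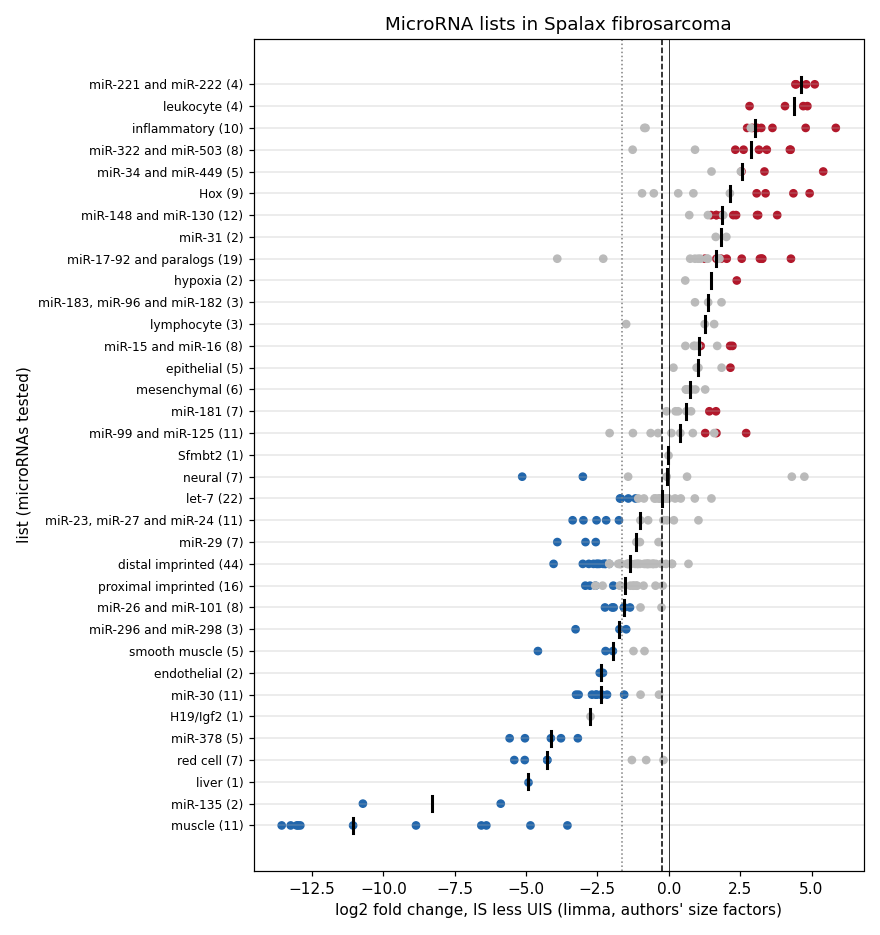
Log2 fold change, IS less UIS (horizontal axis, limma with the authors' size factors), of the tested microRNAs in each list (vertical axis, number tested in brackets): red higher, blue lower, grey not past the threshold, with a black tick at the list's median. The dashed line is the median of all 447 microRNAs (-0.23) and the dotted line (-1.63) lies below 0 by the shift of that median when scaled to total reads. Of the 131 microRNAs between the dotted line and 0, 121 had a positive change in that scaling.

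None of the 6 mesenchymal microRNAs tested, those of miR-199 and miR-214 that mark fibroblasts and other mesenchymal cells, passed (median 0.74), whereas all 6 were higher when scaled to total reads (median 2.43). miR-199a-3p and miR-199b-3p, identical in sequence and listed with identical values, had 209459 and 102798 at the IS against 76597 and 122077 at the UIS (log2 change 0.60, adjusted p = 0.287), with a change of 1.45 in animal Sp2230 and of -0.25 in animal Sp2240. The list took 11.4% and 5.55% of the tumor reads against 1.21% and 1.96% of the UIS reads. These shares count the reads of miR-199a-3p and miR-199b-3p under both names, at 4.81% and 2.33% each in the tumors and 0.540% and 0.869% each in the UIS. Under scaling to total reads the change of miR-199a-3p was 2.29 (adjusted p = 0.00312). miR-214-3p was at 2839 and 2137 against 1081 and 1544 (0.93, adjusted p = 0.126). Neither strand of miR-31 passed, and both were higher when scaled to total reads (median 3.35). miR-31-5p was at 444 and 3105 in the tumors and at 610 and 230 in the UIS, a change of -0.46 in animal Sp2230 and 3.75 in animal Sp2240.

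The miR-29 family, which represses collagen genes, had 3 of 7 tested strands lower (42.9%, beside 22.1% over all), with a median of -1.14. miR-29c-5p had 86.6 and 58.6 at the IS against 1123 and 1041 at the UIS, a log2 change of -3.91 (SE 0.45, adjusted p = 0.000884), and miR-29c-3p 908 and 846 against 6337 and 6931 (-2.92, adjusted p = 0.000995). Both passed under the 3 scalings, and the sides of each were apart. miR-29a-3p, the most abundant member, was at 12745 and 21925 against 33760 and 39952 (-1.14, adjusted p = 0.129, and 0.55 when scaled to total reads). Of 5 smooth muscle microRNAs 3 fell. miR-143-3p had 96103 and 50462 against 332205 and 314651 (-2.21, SE 0.40, adjusted p = 0.00508), and -0.53 when scaled to total reads (adjusted p = 0.313). miR-145b, with 1.09 and 0 against 30.1 and 37.7, was the only strand of that list to pass under the 3 scalings. Both strands of the endothelial miR-126a fell, neither of them under all 3 scalings. miR-126a-5p had 12957 and 23435 against 85254 and 101898, a change of -2.42 (adjusted p = 0.00255) that was -0.73 when scaled to total reads (adjusted p = 0.125), and miR-126a-3p missed the threshold without the UIS library of animal Sp2240 (adjusted p = 0.0549).

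Several abundant families that nearly every tissue expresses were lower at the IS under the authors' scaling, and most of their falls did not pass under the 3 scalings. Of 11 tested strands of the miR-30 family 9 fell, with a median of -2.38, and 2 of them, miR-30d-5p and miR-30b-5p, under the 3 scalings. miR-30d-5p had 43097 and 39240 against 212383 and 216521 (log2 change -2.38, SE 0.24, adjusted p = 0.000713). The number of lower strands was 4 without the UIS library of animal Sp2230. In contrast miR-30e-5p was at 60527 and 73926 against 81167 and 88672 (-0.34, adjusted p = 0.37). Of the clusters of miR-23, miR-27 and miR-24, 5 of 11 strands fell. miR-27b-3p had 71999 and 83355 against 447261 and 448662 (-2.53, adjusted p = 0.000719) and passed under the 3 scalings. Its paralog miR-27a-3p, from the other cluster, was at 12842 and 18807 against 14706 and 17947 (-0.06, adjusted p = 0.901), with overlapping sides and a change of 1.62 when scaled to total reads. Of 8 strands of the miR-26 and miR-101 families 6 fell, none under the 3 scalings. miR-26a-5p had 377178 and 232053 against 1472265 and 1318815 (-2.24, adjusted p = 0.00148, and 0.173 at a change of -0.55 when scaled to total reads). Of the 6 only miR-26a-5p passed without either UIS library.

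The let-7 family, which restrains growth genes such as Ras and Hmga2, had 4 of 22 tested strands lower, none of them under the 3 scalings, and a median of -0.25, beside -0.23 over all microRNAs tested. The share of lower strands was 18.2%, beside 22.1% over all. When scaled to total reads 13 of the 22 were higher and none lower, with a median of 1.44. let-7f-5p had 136770 and 165053 in the tumors against 435883 and 369563 in the UIS (log2 change -1.42, SE 0.28, adjusted p = 0.00682), and a change of 0.27 when scaled to total reads (adjusted p = 0.433). None of the 22 passed without the UIS library of animal Sp2230, where let-7f-5p had an adjusted p of 0.0601. let-7c-5p was at 206645 and 78699 against 149087 and 123992, and let-7i-5p at 155414 and 53927 against 92971 and 99192, so that in both the tumor of animal Sp2230 was above the UIS values and that of animal Sp2240 below them. The miR-99 and miR-125 group had 3 of 11 strands higher, with miR-125b-1-3p at 1027 and 2749 against 249 and 263 (2.71, adjusted p = 0.00682, and 0.0519 without the UIS library of animal Sp2230). The share of higher strands in this group was 27.3%, beside 15.2% over all. Its most abundant member miR-125b-5p was at 41886 and 41080 against 50124 and 58111 (-0.38, adjusted p = 0.287, and 1.31 when scaled to total reads). None of the 3 passed without that library, and 1 did without the UIS library of animal Sp2240. With the animals as a replicate block 1 of the 11 was higher, without the IS library of animal Sp2230 3 were higher and 2 lower, and scaled to total reads 8 were higher. Of 7 strands of miR-181, 2 rose (28.6%, beside 15.2% over all), 1 of them with the replicate block. All 7 were higher when scaled to total reads. miR-181a-1-3p had 1615 and 1059 against 351 and 490 (1.65, adjusted p = 0.0176), and missed the threshold without the IS library of animal Sp2230 (0.0529) or either UIS library (0.112 and 0.0613), while miR-181a-5p was at 159828 and 270212 against 237506 and 202781 (-0.08, adjusted p = 0.871, and 1.61 when scaled to total reads).

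The microRNAs of the imprinted region around Dlk1 and Meg3 were at low levels on both sides and had no member past the threshold that was higher in the tumors. Its distal cluster had 11 of 44 tested strands lower (median -1.36), and its proximal part, with miR-127 and miR-370, 4 of 16 lower (median -1.52). That is 25.0% in each, beside 22.1% lower over all microRNAs tested. Some of the strands counted as tested passed the filter only through the granuloma libraries and had few reads in these 4. The strongest fall was that of miR-495-3p, with 2.72 and 2.17 at the IS against 37.3 and 81.8 at the UIS (log2 change -4.04, SE 0.63, adjusted p = 0.00283), which was the only strand of the region to pass under the 3 scalings. miR-127-3p had 995 and 2801 against 5460 and 7559 (-1.94, adjusted p = 0.0352, and -0.26 when scaled to total reads). It missed the threshold without the IS (0.132) or the UIS library of animal Sp2230 (0.0956) and without the UIS library of animal Sp2240 (0.183). Without the IS library of animal Sp2230 only 1 distal and 1 proximal strand passed, without the UIS library of the same animal 1 and 0, without the UIS library of animal Sp2240 2 and 0, and without its IS library 14 and 4. All 3 tested strands of the Gnas-linked miR-296 and miR-298 fell. miR-296-5p had 19.6 and 8.68 against 118 and 154 (-3.27, SE 0.54, adjusted p = 0.00339) and passed under the 3 scalings, and miR-298-5p had 127 and 241 against 498 and 489 (-1.49, adjusted p = 0.0388, and 0.19 when scaled to total reads). Without the IS library of animal Sp2240 2 of the 3 passed, and 1 without any other. With the replicate block 1 of the 3 was lower.

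Of the remaining groups, 1 strand each was tested of the Igf2 and H19 microRNAs, of the Sfmbt2 cluster, where 74 names are listed, and of the liver list. miR-483-5p of Igf2 was at 1.63 and 0 at the IS against 4.81 and 19.4 at the UIS (log2 change -2.75, adjusted p = 0.345). miR-466i-5p of the Sfmbt2 cluster was at 184 and 217 against 382 and 111 (-0.04, adjusted p = 0.963). miR-122-5p, of hepatocytes, had 0 and 2.17 against 78.2 and 36.6, with 1 read in the tumors and 99 in the UIS libraries. The pooled UIS to IS ratio was 129 (95% exact interval 22.7 to 5157, counting error only) and the adjusted p 0.0063, which was 0.0519 without the UIS library of animal Sp2230. Among 7 neural microRNAs, miR-128-2-5p and miR-128-3p fell (28.6%, beside 22.1% lower over all). miR-128-2-5p went from normalized counts of 36.1 and 32.3 to no read in either tumor. miR-9-5p, best known from neural progenitors, was at 5173 in the tumor of animal Sp2230 and at 77488 in that of animal Sp2240, against 1235 and 824 in the UIS. Both tumors were above both UIS values, but the change of 4.31 (SE 1.60) did not pass (adjusted p = 0.0687). With the animals as a replicate block both strands of miR-9 were higher.

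The study linked microRNAs to Cdkn1a, Foxo1 and genes of the matrix through an annotation of microRNA targets and regulators. The 22 distinct mature names among them were taken as a list. The genes were chosen within the same study, so the list is no independent evidence of a direction. In limma 6 of the 22 were higher (27.3%, beside 15.2% over all microRNAs tested), 4 lower (18.2%, beside 22.1%) and 12 did not pass. The higher ones were miR-17-5p, miR-106b-5p, miR-221-3p, miR-222-3p, miR-223-3p and miR-615-5p, and the lower ones miR-22-3p, miR-122-5p, miR-296-5p and miR-370-3p. miR-370-3p had 2.18 and 4.34 at the IS against 21.7 and 33.4 at the UIS (log2 change -2.76, adjusted p = 0.0242). Among those that did not pass, miR-224-5p was at 2601 and 1456 against 143 and 575 (2.76, adjusted p = 0.0989), miR-423-3p at 13622 and 7766 against 7480 and 7599 (0.45, adjusted p = 0.372), miR-200c-3p at 16.9 and 32.5 against 15.6 and 7.54 (1.04, adjusted p = 0.277), and miR-96-5p at 25.0 and 4.34 against 2.41 and 2.15 (1.85, adjusted p = 0.308). For none of these 4 did the sides overlap, which held for 69.1% of all microRNAs tested. The 4.34 of miR-96-5p lies below 6.51, the normalized count of 3 reads in the tumor library of animal Sp2240. Without the UIS library of animal Sp2230, 1 of the 22 was higher and 2 lower, and without that of animal Sp2240, 2 and 3.

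The 2 tumors differed from each other more than the 2 uninjected sides did. The median absolute difference between animals was 0.93 on the log2 scale at the IS and 0.41 at the UIS, and 75 microRNAs differed over 4-fold between the tumors against 10 between the UIS libraries. Of the 167 called microRNAs 16 differed over 4-fold between the tumors. The largest such differences among them were those of miR-592-5p (0 and 10.8, on 5 reads), miR-222-5p (27.8 and 304), miR-223-3p, miR-34c-5p and miR-196a-5p, each higher in animal Sp2240. Time after injection, sex and depth differ between the 2 animals along with any of this and cannot be told apart.

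For 131 hairpins both arms were tested. Both arms passed for 36 of them and moved in the same direction in all 36, 1 arm passed for 27 and neither for 68. The ratio of the 5p to the 3p arm differed between the sides for 4 hairpins (3.05% of 131). One was miR-664, whose 5p arm held 47.2% and 52.9% of its reads in the tumors and 11.6% and 19.9% in the UIS. That is a change of 2.46 (SE 0.40, adjusted p = 0.0145 in limma) in the log2 ratio of the arms, and it came with a fall of the 3p arm from 781 and 656 to 71.3 and 17.4 normalized counts. In the tumor of animal Sp2240 its arms had only 9 and 8 reads. The others rested on few tumor reads as well. For miR-539 the 5p share was 16.7% and 50.0% in the tumors and 90.9% and 93.1% in the UIS libraries (log2 ratio -3.70, adjusted p = 0.00673). For miR-133b and miR-499 an arm, 5p and 3p respectively, had no read in either tumor, so that their fitted ratios depend on the pseudocount. The next hairpin, miR-139, missed the threshold (log2 ratio -1.67, adjusted p = 0.053). In a fit of these 4 libraries alone 2 hairpins passed. Without the UIS library of animal Sp2230 none passed in limma (24 with an unadjusted p under 0.05), without the IS library of animal Sp2240 2 did, and without that of animal Sp2230 7 did.

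The change at the fibrosarcoma side was then set beside the change at the granuloma side of the other 2 animals, whose UIS libraries are separate. Time after injection and sex differ between these groups along with the lesion and cannot be told apart from it. It differed for 17 of 447 microRNAs (3.80%), all of them with a higher change in granuloma, and with adjusted p between 0.0432 and 0.0488 in limma. Most were of the imprinted region around Dlk1 and Meg3 described above. Of its 60 tested strands 13 differed, and of the 387 other microRNAs 4, namely miR-296-3p, miR-296-5p, miR-298-5p and miR-199a-5p. In granuloma, 34 of the 44 distal and 9 of the 16 proximal strands were higher at the IS, beside 25.5% of all 447 microRNAs, where none of these strands was in fibrosarcoma. A strand could count as tested through its high values in the granuloma IS libraries alone. These counts, and the 13 of 60, are thus set in part by the filter and are no separate evidence. miR-409-3p had 5538 and 2426 normalized counts at the IS of granuloma animals Sp600 and Sp976 and 177 and 142 at their UIS (log2 change 4.52). In fibrosarcoma it had 61.0 and 141 at the IS against 128 and 166 at the UIS (-0.64, adjusted p = 0.424), a difference of 5.16 (SE 0.84, adjusted p = 0.0432). miR-127-3p rose to 75285 and 33693 from 10264 and 12305 in granuloma, a change of 2.16 against -1.94. For both strands the IS values of the granulomas lay above every other value.

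Outside that region, miR-296-3p had 619 and 499 at the IS of the granulomas and 73.7 and 30.5 at their UIS, against 17.4 and 19.5 and 61.4 and 65.7 in fibrosarcoma, a difference of 5.25 (SE 0.76, adjusted p = 0.0432). miR-199a-5p, of the mesenchymal list, had 99726 and 84353 at the IS against 8946 and 6329 at the UIS in granuloma (log2 change 3.61), against 18726 and 28506 and 10394 and 16868 in fibrosarcoma (0.80, adjusted p = 0.144). The sides did not overlap in either lesion. The count of 17 hung on single libraries and on the tool. It was 5 with the animals as a replicate block and 69 in DESeq2. It was 39 without the IS library of granuloma animal Sp976, 31 without that of fibrosarcoma animal Sp2240, and 0 in limma without any other of the 8, where 74 to 115 microRNAs had an unadjusted p under 0.05. In contrast miR-21a-5p changed by 3.63 in both lesions (adjusted p of the difference 0.999), and miR-222-3p by 4.36 in granuloma against 4.81 (adjusted p of the difference 0.856). The muscle microRNAs fell in both, with miR-133a-3p at -11.69 in granuloma and -13.24 in fibrosarcoma (adjusted p of the difference 0.647). An adjusted p of this size does not show that the lesions were alike.

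**Figure D5:**
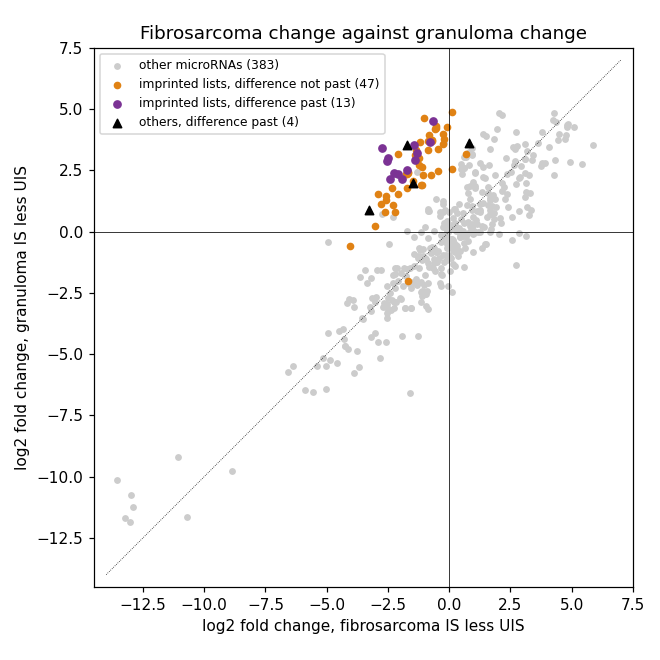
Log2 fold change, IS less UIS, of the 447 microRNAs in fibrosarcoma (horizontal axis) and in granuloma (vertical axis), with the imprinted region and the 17 microRNAs whose changes differed marked. The 17 lie above the diagonal, and the muscle microRNAs at the lower left are low in both lesions.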

How the data were processed

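Small RNA libraries were made with a TruSeq kit and sequenced on a single lane. Per the study's methods the authors mapped the reads with mirDeep and compared sides with DESeq2. The settings and the genome build of that mapping are not given in the sources used here. The submitters' processing notes list GRCm38, TopHat 1.4.1, HTSeq and DESeq without saying for which data. The authors deposited a signal per microRNA and library, reads divided by a size factor, and 100% of the values of the libraries used became whole reads (within 0.1 read) when multiplied by it. The factors equal those computed by the median-of-ratios method over all 14 libraries of both species. The table also holds 5 columns of mouse libraries, which were not used, and the RNA-seq and mouse libraries are not analysed here.

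The members, the lists of microRNAs and the tests were chosen with earlier results of these data known. The 8 *Spalax* libraries were fitted together by limma on log2(value + 1), each condition and side having its own mean and the spread following the mean, on the 447 microRNAs that reached a value of 10 in 2 or more libraries, and p-values were adjusted over all of them by Benjamini-Hochberg. Arm ratios were fitted in the same way, without the trend, for the 131 hairpins with both arms tested. A floor of 3 reads per library was used for bounds. Intervals of read ratios are exact and cover counting error only, since the reads carry no molecular identifiers. Replicates of a side differed by far more than sampling noise. The IS and UIS libraries of an animal are paired by its number in the labels. Their deviations from the group means had a correlation of 0.00405 in fibrosarcoma and 0.0933 in granuloma, and the fit with the animal as a block was an alternative.

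The named microRNAs were the 10 largest rises and falls, the most abundant and the smallest p of each list, the 10 most abundant of each library, the 5 smallest p of the difference from granuloma and of the arm ratio, the 5 called microRNAs that differed most between the tumors, and the 22 of the study. Those that the text names beyond these were chosen after their values were seen. Alternatives were other scalings, edgeR, DESeq2, another pseudocount (0.1), no filter, no trend, the 4 libraries alone, identical names counted once, and each library left out. On simulated reads limma recovered 89 of 94 microRNAs changed 4-fold and 103 of 103 changed 16-fold in the fibrosarcoma comparison. It called 2 of 242 unchanged microRNAs, among 439 tested. The simulated reads had the same dispersion in every library, changes in random directions and known size factors. They therefore do not show how the test performs with the spread between these tumors or with their shift in composition. Scripts ran in Python 3.11.15 and in R 4.3.3 with DESeq2 1.42.0, edgeR 4.0.16 and limma 3.58.1. Hairpins were read from GRCm38 with GENCODE M21.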

Additional observations from a re-analysis of the deposited data

Results flagged for a closer look

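The change from UIS to IS differed between granuloma and fibrosarcoma for 17 microRNAs by the test of that difference itself, which is 1 limma fit over the 8 *Spalax* libraries with Benjamini-Hochberg adjusted p between 0.0432 and 0.0488. The values are the granuloma change less the fibrosarcoma change on the log2 scale, and each is positive. In the imprinted region around Dlk1 and Meg3 they were 6.16 for miR-370-3p, 5.49 for miR-485-5p, 5.42 for miR-3072-3p, 5.16 for miR-409-3p, 4.95 for miR-1193-5p, 4.61 for miR-411-3p, 4.58 for miR-379-5p, 4.53 for miR-379-3p, 4.43 for miR-485-3p and for miR-369-5p, 4.31 for miR-300-3p, 4.25 for miR-411-5p and 4.11 for miR-127-3p. Outside it they were 5.25 for miR-296-3p, 4.15 for miR-296-5p, 3.47 for miR-298-5p and 2.80 for miR-199a-5p. Several of these rest on few reads in fibrosarcoma, where miR-3072-3p had no read in either tumor. A microRNA could pass the filter through the granuloma libraries alone. The count of 17 depended on the processing. In limma it was 0 without the filter, 0 with a smaller pseudocount and 5 with the animals as a replicate block. Scaled to library totals it was 24, and 25 to totals outside the muscle list. In edgeR it was 21 with TMM factors and 15 with the deposited ones, and in DESeq2 69. It also changed when single libraries were left out. Time after injection and sex differ between the lesion groups as well and cannot be told apart from the lesion. With 2 libraries in each group, no single library was tested for standing apart from its group.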

How the results depend on the processing

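Of the values of single named microRNAs under the alternatives, 1559 kept their direction and their side of the threshold, 122 lost the threshold, 51 gained it and 33 changed sign. Scaling mattered most for direction. Scaled to library totals, 193 microRNAs were higher and 41 lower, and scaled to totals outside the muscle list, 144 and 58. Scaled to totals, the log2 change turned positive for let-7c-5p (1.59), let-7f-5p (0.27), let-7i-5p (1.62), miR-10b-5p (0.75), miR-125b-5p (1.31), miR-150-5p (0.19), miR-181a-5p (1.61), miR-27a-3p (1.62), miR-298-5p (0.19), miR-29a-3p (0.55), miR-409-3p (1.03) and miR-466i-5p (1.63). Outside the muscle list it did for let-7c-5p (0.95), let-7i-5p (0.98), miR-10b-5p (0.11), miR-125b-5p (0.67), miR-181a-5p (0.97), miR-27a-3p (0.98), miR-409-3p (0.39) and miR-466i-5p (1.00). let-7c-5p and let-7i-5p were also positive in edgeR with the deposited factors and in DESeq2 (0.063 and 0.12 in each).

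Leaving out 1 library gave 77 to 176 microRNAs past the threshold, 22 to 76 higher and 53 to 103 lower. In these fits the change ran from -0.79 to 0.60 for let-7c-5p, from -0.83 to 0.69 for let-7i-5p, from -0.46 to 0.30 for miR-181a-5p, from -0.34 to 0.21 for miR-27a-3p and from -0.93 to 0.84 for miR-466i-5p. Past the threshold were 151 with the animals as a replicate block (143 of them shared with the 167), 163 in edgeR with TMM factors, 168 in edgeR with the deposited factors, 209 in DESeq2, 153 without a filter, 161 with a pseudocount of 0.1 and 145 in a fit of the 4 libraries alone.

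The difference from granuloma, with 17 calls, gave 69 in DESeq2, 21 and 15 in edgeR with TMM and deposited factors, 5 with the replicate block, 0 in limma without a filter (107 at an unadjusted p under 0.05) and 0 with a pseudocount of 0.1 (89), and 0 to 39 without 1 library. The arm ratio, with 4 hairpins, gave 10 of 213 without a filter, 2 from the 4 libraries alone, 3 with the replicate block and 0 to 7 without 1 library. With the block miR-16-5p, miR-92a-3p, miR-296-3p and miR-298-5p lost the threshold, miR-224-5p, miR-411-5p and miR-9-5p gained it, and no other named microRNA did either. The causes of these changes were not tested. The shallowest library, the tumor of animal Sp2240, limits what can be seen of microRNAs below a normalized count of 6.51.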

Other observations

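Of the 162 tested microRNAs that belong to no list, 35 (21.6%) passed the threshold in limma, with Benjamini-Hochberg adjusted p, beside 37.4% over all microRNAs tested. Those named here were chosen after their values were seen. Among the lower ones, miR-139-5p had 61.0 and 65.1 normalized counts in the tumors of animals Sp2230 and Sp2240 against 910 and 1001 in the UIS, a log2 change of -3.90 (SE 0.46, adjusted p = 0.000896) that passed under the 3 scalings. Both strands of miR-193b, made in brown fat and muscle, fell. miR-193b-3p had 1057 and 1360 against 6489 and 7510 (-2.54, adjusted p = 0.00169), and did not pass when scaled to total reads (-0.85, adjusted p = 0.0681). Both strands of miR-335, from an intron of the imprinted gene Mest, were lower too, miR-335-3p with 26.7 and 23.9 against 288 and 377 (-3.65, adjusted p = 0.0106). miR-335-3p missed the threshold without the UIS library of animal Sp2230 or Sp2240. miR-335-5p missed it without any 1 of the IS and UIS libraries of these animals.

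Among the higher ones, miR-455-5p, from an intron of the collagen gene Col27a1, had 383 and 354 in the tumors against 14.4 and 44.1 in the UIS (log2 change 3.80, SE 0.61, adjusted p = 0.00301) and passed with each library left out in turn. miR-33-5p, from an intron of the sterol regulator gene Srebf2, had 228 and 104 against 22.9 and 18.3 (2.85, adjusted p = 0.0107), and missed the threshold without either UIS library (0.0596 and 0.0801). Some microRNAs in no list were abundant in the tumor of animal Sp2240 alone. miR-6240 was at 414 and 11728 in the tumors and at 248 and 108 in the UIS (adjusted p = 0.0687), and miR-3068-3p at 52.8 and 2816 against 182 and 250 (adjusted p = 0.683).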
